A study of Marmota monax with 203 samples.

Results

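The 89 genes described here encode the proteins of the cytosolic ribosome. They were chosen by symbol from the 17587 woodchuck genes with reads: symbols starting with RPL or RPS and a digit, together with RPSA and the P stalk genes RPLP0, RPLP1 and RPLP2, without the RPS6K kinases and without symbols of processed pseudogenes. Of the 89, 43 belong to the large subunit, 31 to the small subunit and 3 to the P stalk, 9 are paralogs of another member, and 3 are readthrough genes that join a ribosomal protein gene to its neighbour. FAU, which encodes a ribosomal protein fused to a ubiquitin-like protein, carries another symbol and is given with the pathway lists.

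The cytosolic ribosome is built from ribosomal RNA and a fixed set of proteins that are needed in equal amounts, most of them as a single copy in each ribosome. The mRNAs of these proteins begin with a run of pyrimidines, the 5 prime TOP motif, through which mTORC1 and LARP1 control their translation and stability, and they share this motif with many translation factors. In the liver, which makes much of the plasma protein, these mRNAs are abundant. Type I interferon is known to restrain translation through the kinase PKR and through members of the IFIT family.

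The samples are liver biopsies of captive-born woodchucks (Marmota monax) that were infected with woodchuck hepatitis virus (WHV) shortly after birth and were chronic carriers, which all groups share. Placebo animals were compared with animals injected under the skin with recombinant woodchuck interferon-alpha (wIFN-α) 3 times a week. Each injection at first held 20 μg per animal (low dose), which covers the biopsies of weeks 0 and 3. From week 7 until treatment ended at week 15 it held 100 μg (high dose), which covers weeks 7, 11 and 15. The week 7 biopsies followed the first injection of the high dose. Biopsies used at weeks -3, 0, 3, 7, 11, 15, 19 and 23 numbered 12, 12, 12, 12, 10, 9, 5 and 9 for placebo and 11, 11, 9, 9, 8, 8, 6 and 6 for wIFN-α. The biopsies of weeks 0 to 15 were taken a few hours after an injection. The weeks are those of the study, which start at 0 with the first injections, whereas the sample labels start at 1. Animals of both sexes were used, and the biopsies of 1 animal at different weeks are not independent of each other. Animal M1004 of the wIFN-α group was left out, as in the study, because it was thought to be clearing the virus on its own when dosing began.

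Between 12072840 and 84805845 reads lay on genes in the 149 biopsies used, with a median of 28754894, and levels are given as CPM, the reads of a gene scaled to a fixed library size, after TMM normalization, a scaling that sets the bulk of the genes equal between biopsies. All 8 interferon-stimulated genes used to check the labels were higher in wIFN-α animals at each of weeks 0, 3, 7, 11 and 15. In 5 biopsies more than 5% of the reads lay on a list of 20 skeletal muscle genes. They were the week -3 biopsies of placebo animal F1016 and wIFN-α animal F1018 with 14.4% each, those of placebo animals F1021 (12.2%) and M1011 (5.43%) at week 3 and that of wIFN-α animal F1023 (8.02%) at week 0. In F1016 and F1018 the 12 hepatocyte genes held 0.477% and 0.266% of the reads, against a median of 12.6% in the placebo animals of week -3, so that these biopsies did not look like liver by their markers. Of the 89 members, 86 reached a median of at least 1 CPM in placebo animals, and RPL3L, RPL36A and RPL39L did not. The gene lengths behind the deposited RPKM values are not those of ribosomal protein mRNAs, with 17 of 87 members within 5 nucleotides of 1000 and 33 above 2000. For this reason levels were compared between biopsies and never between genes. A gene symbol was given to assembled contigs by similarity, so that reads of close paralogs and processed pseudogenes could be counted under a member's name.

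The members together held between 1.06% and 3.15% of the reads of a biopsy. Before treatment, at week -3, the 2 group means were close, with 2.01% ± 0.411 (SD, n = 12) in placebo and 2.06% ± 0.282 (n = 11) in wIFN-α animals. The difference was 0.0572 percentage points, and 0.0441 without F1016 and F1018. Placebo animal M1001 was the lowest there with 1.06%, and the next placebo animal, F1017, had 1.67%. The difference without M1001 was not computed. At week 0, hours after the first injection, the mean share was 2.29% ± 0.399 (n = 12) in placebo and 1.94% ± 0.315 (n = 11) in wIFN-α animals. At week 11 it was 1.79% ± 0.472 (n = 10) and 1.33% ± 0.108 (n = 8), and at week 15 it was 1.67% ± 0.263 (n = 9) and 1.36% ± 0.156 (n = 8). The wIFN-α mean was lower than the placebo mean by 15.3% at week 0, 17.2% at week 3, 19.4% at week 7, 25.8% at week 11 and 18.6% at week 15. It was still lower by 16.3% at week 19 and by 14.4% at week 23. The groups overlapped at every week. At week 7, 8 of 9 wIFN-α animals lay below every placebo animal, and at week 15, 6 of 8. At week 11 it was 1 of 8, while 8 of 8 lay below the placebo median of 1.66%. The placebo mean of week 11 held 2 high biopsies, those of M1005 (2.70%) and F1017 (2.56%). Biopsies were also grouped by the sequencing lane of their deepest run. In each of the 7 lanes the wIFN-α mean over weeks 0 to 15 was lower than the placebo mean. The differences were 0.115 to 0.595 percentage points, against 0.363 over all lanes. The weeks were not balanced within lanes, and 37 of the 149 biopsies had further runs summed in. A share of reads is relative to all other RNA. Fewer cells rich in ribosomal protein mRNA, less of this mRNA per cell and more of other RNA therefore cannot be told apart. At week 0, where the share was lower by 15.3%, the median log2 fold change of the members after TMM normalization was -0.04.

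**Figure D1:**
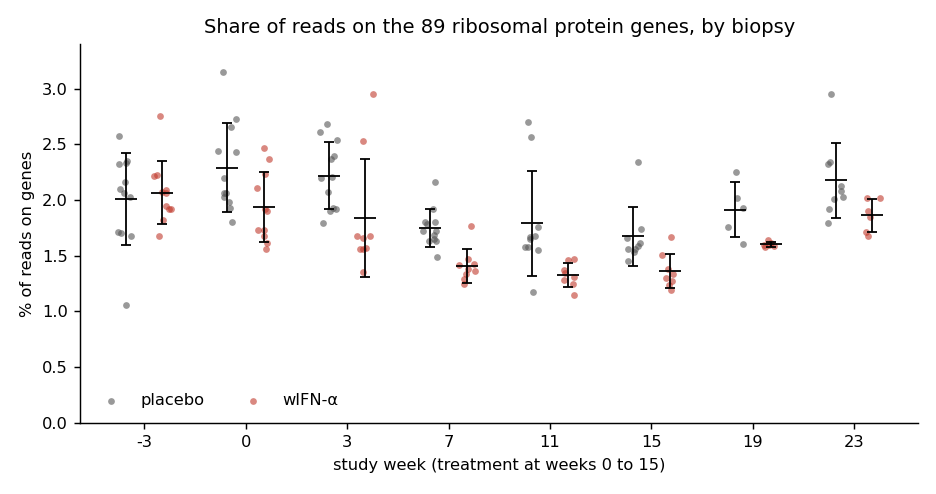
Percent of the reads on genes that lay on the 89 ribosomal protein genes (y axis) in each biopsy (points) by study week (x axis), for placebo (grey) and wIFN-α (red) animals, with the group mean and SD in black. Both groups stood near 2% at week -3, and both were lower at weeks 7 to 15, where wIFN-α animals were the lower of the 2 (means of 1.36% and 1.67% at week 15).

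The same wIFN-α against placebo comparison was made gene by gene at each week by edgeR's quasi-likelihood test over all genes, and a gene passed at a Benjamini-Hochberg adjusted p under 0.05. At week -3 none of 87 members tested passed (0% of all genes), and 0 passed with DESeq2. An unadjusted p under 0.05 was reached there by 0 members, against 130 of 14963 genes tested. At week 0, 1 of 86 members was lower and none was higher, where 16.2% of all genes tested were lower and 18.4% higher (34.6% in either direction). At week 3, 10 of 87 members were lower (7.6% of all genes). At week 7, 33 of 87 were lower (23% of all genes) and 1 was higher (23.6% of all genes, and 46.6% in either direction), at week 11, 32 of 88 were lower (17.2% of all genes) and none was higher (20.2% of all genes), and at week 15, 23 of 88 were lower (19.2% of all genes) and none was higher (22.3%, or 41.5% in either direction). The median log2 fold change of the members was 0.05 at week -3, -0.04 at week 0, -0.27 at week 3, -0.19 at week 7, -0.32 at week 11 and -0.18 at week 15, where the median of all genes lay between -0.04 and 0.00 (log2). The changes were small in size. Of the members that passed at weeks 3, 7, 11 and 15, 0, 1, 3 and 2 also had a fold change above 1.5, as had 10.8%, 21.6%, 20.5% and 22.3% of all genes tested.

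**Figure D2:**
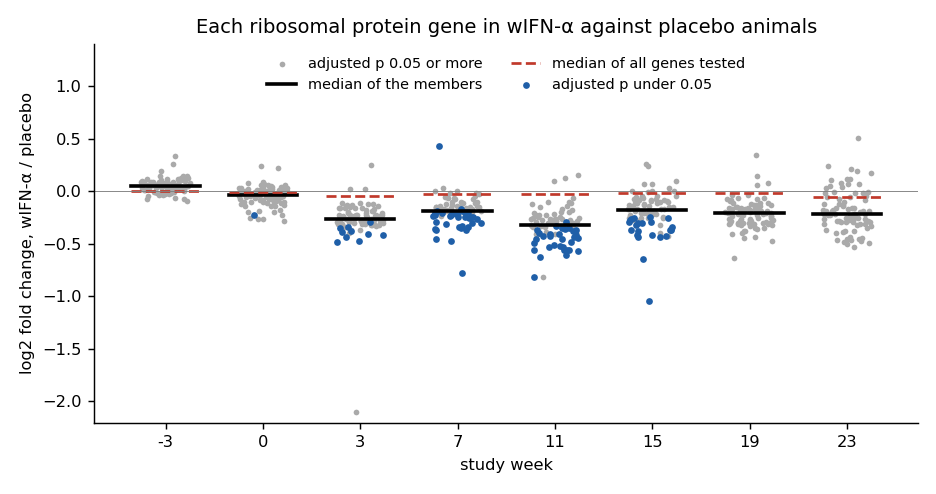
Log2 fold change between wIFN-α and placebo animals (y axis) of each ribosomal protein gene tested (points) at each study week (x axis). Blue points passed at an adjusted p under 0.05, black bars are the median of the members and red dashed bars the median of all genes tested. The members lay around 0 at weeks -3 and 0 and mostly below 0 from week 3 on, with a median of -0.32 at week 11. The point at -2.10 at week 3 is RPL3L.

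The counts depended on single animals at some weeks. At week 11, 66 members passed without placebo animal M1008, whose member share was the lowest of its group (1.18%), and at week 7, 53 passed without wIFN-α animal M1007, whose share was the highest of its group (1.77%). The member median at week 11, -0.32 with all animals, was -0.39 without M1008. It was -0.23 without placebo animal F1017 and -0.26 without placebo animal M1005. At week 3, 5 passed without wIFN-α animal F1013, whose 8 interferon-stimulated genes summed to 763 CPM there, within the placebo range of 280.0 to 922 CPM and far below the other wIFN-α animals (10209.5 to 13337 CPM), and 4 passed without the 2 biopsies with more than 5% skeletal muscle reads. With the animal as a block and the effect taken as the change from week -3, 3, 19, 15, 33 and 16 members passed at weeks 0, 3, 7, 11 and 15, and without the 5 muscle-rich biopsies it was 2, 8, 12, 29 and 14. The week -3 biopsy of placebo animal M1001, with a member share of only 1.06%, was kept in both. Scaling by library totals moved the median of all genes at week 0 from -0.01 to -0.19 (log2), and that of the members moved along from -0.04 to -0.22. The distance between the 2 medians was -0.03 under both scalings.

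Of the members with more than a few reads, RPL4 had the lowest fold changes at weeks 7, 11 and 15. Its protein lines the exit tunnel of the large subunit. At week 0 its lowest, median and highest levels were 636, 867 and 1009 CPM in placebo and 463, 686 and 981 CPM in wIFN-α animals, giving -0.20 as log2 fold change (standard error, SE, 0.13, adjusted p = 0.255). At week 7 they were 521, 659.6 and 736 CPM in placebo and 379, 457 and 578 CPM in wIFN-α animals. At week 11 they were 519, 600.1 and 1143 CPM in placebo and 313, 383 and 440.4 CPM in wIFN-α animals, and at week 15 they were 513, 617 and 739.7 CPM and 333, 411 and 436 CPM. The groups did not overlap at week 11 or 15, and 7 of 9 wIFN-α animals lay below every placebo animal at week 7. On the log2 scale RPL4 differed by -0.47 (SE 0.08, adjusted p = 2.48e-05) at week 7, -0.81 (SE 0.15, adjusted p = 2.93e-04) at week 11 and -0.64 (SE 0.08, adjusted p = 9.03e-06) at week 15. After treatment, at week 19, RPL4 ran from 698 to 863 CPM in 5 placebo animals and from 485 to 678 CPM in 6 wIFN-α animals, again without overlap (adjusted p = 0.297). At week 23 the groups overlapped. No gene of all those tested passed at week 19. How many of all genes had groups apart was counted at none of these weeks.

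The other low members of week 15 were RPL21, RPL10, RPS2 and RPL36A. RPL21, a protein on the outer face of the large subunit, lay at 162, 226 and 247 CPM (lowest, median and highest) in placebo and at 122, 163 and 173 CPM in wIFN-α animals, a log2 fold change of -0.44 (SE 0.09, adjusted p = 7.45e-04). RPS2 sits at the mRNA entry of the small subunit. It did not overlap at week 7, with 385, 439 and 504 CPM in placebo and 294, 310.3 and 378 CPM in wIFN-α animals (log2 fold change -0.45, SE 0.06, adjusted p = 2.46e-06). At week 15 its log2 fold change was -0.42 (SE 0.20, adjusted p = 0.0905), with placebo animal F1021 at 872 CPM and the next placebo animal at 477 CPM. At week 15 the groups were apart for RPL4 and for RPS4X, the small subunit protein encoded on the X chromosome. How many of all genes had groups apart was not counted, at this week or at others. RPL36A had at most 68 reads in a biopsy. Its levels at week 15 were 0.0658, 0.631 and 1.19 CPM in placebo and 0.168, 0.260 and 0.439 CPM in wIFN-α animals, and the log2 fold change of -1.05 (SE 0.34, adjusted p = 0.0194) was lost with limma-voom (adjusted p = 0.0778) and rests on few reads that its paralog RPL36AL and the readthrough RPL36A-HNRNPH2 could share. Across weeks, 18 of 87 members tested were lower at each of weeks 7, 11 and 15 (11.6% of all genes), in biopsies of largely the same animals, and 43 of 88 at any of them (28.7% of all genes). The 18 were RPL10L, RPL13A, RPL15, RPL21, RPL22, RPL23A, RPL24, RPL4, RPL5, RPL7, RPL7A, RPLP0, RPS12, RPS25, RPS27A, RPS3A, RPS4X and RPS6, of which RPL13A, RPL21, RPL22, RPL24, RPL4 and RPS12 were also lower at week 3.

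RPL5 and RPL11 form a complex with the smallest RNA of the large subunit, and free of the ribosome both bind the ubiquitin ligase MDM2. RPL5 at week 15 lay at 252, 312 and 373 CPM in placebo and at 174, 231 and 254 CPM in wIFN-α animals, where 7 of 8 were below every placebo animal (log2 fold change -0.42, SE 0.08, adjusted p = 6.23e-04). RPL11 lay at 145, 190.1 and 256 CPM and at 149, 168 and 194 CPM, and the groups overlapped (log2 fold change -0.15, SE 0.10, adjusted p = 0.227). At week 11 their log2 fold changes were -0.56 (SE 0.12) and -0.30 (SE 0.14), with adjusted p of 9.47e-04 and 0.107. The difference between both genes was not tested.

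The P stalk recruits elongation factors to the ribosome. RPLP0, its base, fell at weeks 7, 11 and 15, by 0.35, 0.56 and 0.37 on the log2 scale (SEs 0.09, 0.11 and 0.13, adjusted p = 0.00211, 3.28e-04 and 0.0282). Its lowest, median and highest levels at week 11 were 288, 370.4 and 508 CPM in placebo and 218, 261 and 289 CPM in wIFN-α animals, where 7 of 8 were below every placebo animal. Its call at week 15 was lost without wIFN-α animal F1018 or M1002 (adjusted p = 0.0579 and 0.0532) and with the animal as a block (adjusted p = 0.0757). RPLP1 and RPLP2, the acidic proteins bound to it, passed at week 3 (log2 fold changes -0.38 and -0.43, SEs 0.13 and 0.14, adjusted p = 0.0469 and 0.0340). RPLP1 passed at week 7 as well (log2 fold change -0.20, SE 0.08, adjusted p = 0.0394), and RPLP2 did not (-0.20, SE 0.09, adjusted p = 0.0836). At week 15 their log2 fold changes were -0.05 and -0.06 (SEs 0.12 and 0.13, adjusted p = 0.784 and 0.760).

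Further members with a known second role were followed whatever their change. RPS6 is the substrate of the S6 kinases downstream of mTORC1. At week 15 it lay at 257, 343 and 543 CPM in placebo and at 208, 274 and 307 CPM in wIFN-α animals, a log2 fold change of -0.36 (SE 0.12, adjusted p = 0.0257) that did not pass without wIFN-α animal M1002 (adjusted p = 0.0544). RPL13A, which silences the translation of inflammatory mRNAs as part of the GAIT complex, lay at 37.3, 43.1 and 66.3 CPM in placebo and at 30.9, 35.5 and 45.6 CPM in wIFN-α animals, 7 of 8 of them below every placebo animal (log2 fold change -0.32, SE 0.11, adjusted p = 0.0318). This call was lost without wIFN-α animal F1018, M1002 or M1003 (adjusted p = 0.0625, 0.0627 and 0.0578) and with the animal as a block (adjusted p = 0.230). RPL13A was also the member that fell most among those that passed at week 3, by 0.48 on the log2 scale (SE 0.11, adjusted p = 0.00396). RPSA, also known as the laminin receptor, lay at 222, 279.8 and 367 CPM in placebo and at 222, 248 and 329.9 CPM in wIFN-α animals at week 15, which overlapped almost in full (log2 fold change -0.08, SE 0.10, adjusted p = 0.579). RPS27A, made as a fusion with ubiquitin, differed by -0.26 on the log2 scale at week 0 (SE 0.13, adjusted p = 0.116) and by -0.37 at week 15 (SE 0.09, adjusted p = 0.00252). With the animal as a block and without the muscle-rich biopsies, neither RPS6 nor RPS27A passed at week 15 (adjusted p = 0.0745 and 0.0527).

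Some members stayed near 0. RPS27 lay at 161, 228 and 237 CPM in placebo and at 199, 225 and 255 CPM in wIFN-α animals at week 15, and its log2 fold change was between -0.06 and 0.10 at weeks 0 to 15. RPS27, RPS27L, RPL37, RPS15 and RPL22L1 were the 5 highest at week 15, with log2 fold changes of 0.10, 0.07, 0.07, 0.26 and 0.24 (SEs 0.08, 0.09, 0.14, 0.18 and 0.33), and none passed with edgeR. Without placebo animal F1021, the highest of its group for both genes, RPS15 and RPL22L1 passed as higher at week 15 (log2 fold changes 0.42 and 0.71, adjusted p = 0.0124 and 0.00248). With DESeq2 and all animals RPL22L1 passed as higher at week 15 too (log2 fold change 0.66, adjusted p = 4.81e-04). In edgeR's weekly fits of all animals the only member that passed as higher was RPL22L1, the paralog of the RNA-binding protein RPL22, at week 7. Its levels there were 5.67, 8.07 and 13.2 CPM in placebo and 8.88, 9.98 and 23.7 CPM in wIFN-α animals, which overlapped (log2 fold change 0.43, SE 0.18, adjusted p = 0.0468), and the call was lost in 13 of 21 fits that left out 1 animal. At week 0 the 5 highest members were RPS28, RPL34, RPL37A, RPL30 and RPLP2, with log2 fold changes of 0.24, 0.22, 0.09, 0.08 and 0.07 (SEs 0.10, 0.10, 0.10, 0.10 and 0.12), and the 5 lowest were RPL5, RPL22L1, RPS27A, RPS2 and RPL10, with -0.28, -0.26, -0.26, -0.25 and -0.23 (SEs 0.12, 0.21, 0.13, 0.10 and 0.19). None of these 10 passed at week 0 with edgeR. With the animal as a block RPL5 and RPS27A passed as lower there (adjusted p = 0.0451 and 0.0336). With DESeq2 RPS28 passed as higher at week 0 (adjusted p = 0.0427), and RPL5 and RPS2 as lower (adjusted p = 0.0380 and 0.0386).

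The member that passed at week 0 with edgeR was RPL7L1, a nucleolar paralog of RPL7 that acts in the assembly of the large subunit. Its levels were 44.1, 52.3 and 64.2 CPM in placebo and 32.7, 44.9 and 54.8 CPM in wIFN-α animals, 5 of 11 of them below every placebo animal (log2 fold change -0.22, SE 0.08, adjusted p = 0.0356). This call was lost in 9 of 23 fits that left out 1 animal, that without F1023 and its muscle reads included (adjusted p = 0.0588), and with the animal as a block (adjusted p = 0.0832). At week 11 the groups did not overlap, with 48.2, 55.2 and 60.4 CPM against 38.0, 45.0 and 47.7 CPM (log2 fold change -0.29, SE 0.06, adjusted p = 6.29e-04). RPL10L is known as the testis paralog of RPL10, and the labels of both are uncertain here because their reads could be shared. They fell together at week 15, by 0.42 and 0.43 on the log2 scale (SEs 0.09 and 0.13, adjusted p = 8.01e-04 and 0.0150), neither of them passing with the animal as a block (adjusted p = 0.117 and 0.260). RPL10L was also apart at week 11, at 257, 299 and 387 CPM in placebo and 178, 219 and 229 CPM in wIFN-α animals. RPL26L1, RPL36AL and RPS27L did not pass at any week, and their log2 fold changes at week 15 were -0.09, -0.07 and 0.07. RPS17L, also a paralog, passed as lower at week 7 and not at weeks 0, 3, 11 or 15. RPL39L had at most 40 reads in a biopsy and was too low for the weekly tests. Its level was 0.0699, 0.212 and 0.311 CPM in placebo and 0.418, 0.648 and 1.12 CPM in wIFN-α animals at week 0, without overlap, and 0, 0.192 and 0.315 CPM against 0.282, 0.366 and 0.556 CPM at week 15, where the groups overlapped.

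RPL3L, the paralog of RPL3 made in skeletal muscle and heart, marked the biopsies with muscle reads. It had 2590, 3425, 6226, 6451 and 8886 reads in the 5 biopsies with more than 5% skeletal muscle reads, against a median of 12 reads (range 1 to 2246) in the other 144. The 6226 and 8886 reads were those of the week -3 biopsies of F1016 and F1018, which had 0.477% and 0.266% of their reads on the hepatocyte genes. Its log2 fold change at week 3 was -2.10 (SE 1.30, adjusted p = 0.263). At that week placebo animals F1021 and M1011 had more than 5% muscle reads, and biopsies of both groups had 1% to 3%, with 2003 RPL3L reads in wIFN-α animal F1018 and 1368 in placebo animal M1001.

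**Figure D3:**
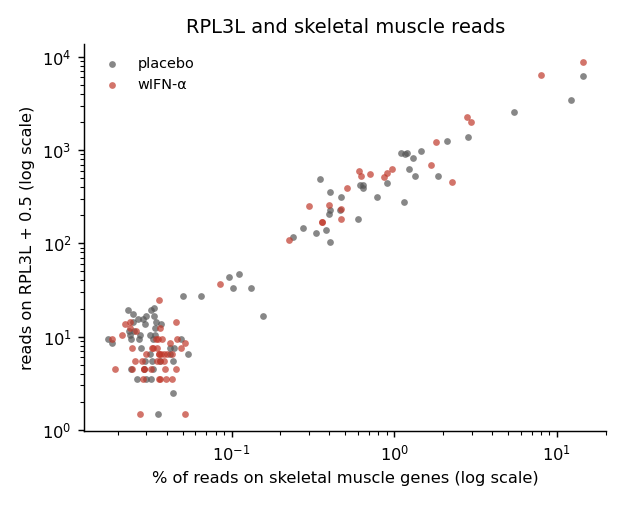
Reads on RPL3L plus 0.5 (y axis, log scale) against the percent of reads on 20 skeletal muscle genes (x axis, log scale) in the 149 biopsies, placebo in grey and wIFN-α in red. The 5 biopsies above 5% had 2590 to 8886 RPL3L reads, and the median of the other 144 was 12 reads.

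The effects of wIFN-α at different weeks were then compared with each other in 1 fit of all 16 groups. These comparisons share control biopsies. To compare the high with the low dose, the effect at week 15 was set against the mean effect at weeks 0 and 3. The low dose always came first, so in this test between doses the dose cannot be told apart from time on treatment. None of 89 members passed, DESeq2 passed 0, and the median difference was -0.06 (log2). Of all genes 2.26% passed, 0.327% with a lower effect at week 15 and 1.93% with a higher one. An unadjusted p under 0.05 was reached by 1 member, against 2315 of 16232 genes tested. The difference of RPL4 was -0.33 (95% interval -0.61 to -0.05, adjusted p = 0.231) and that of RPS27 was 0.04 (95% interval -0.20 to 0.28). With the animal as a block 1 member passed, RPS15 (0.49, adjusted p = 0.0493). To ask whether repeated low doses differed from the first, the effect at week 3 was set against that at week 0. Again none of 89 members passed (2.4% of all genes did, 0.524% lower and 1.87% higher), and DESeq2 passed 0. The median difference was -0.22. An unadjusted p under 0.05 was reached by 12 members, against 2571 of 16232 genes tested. RPLP2 and RPLP1 had the differences -0.49 (SE 0.19, adjusted p = 0.182) and -0.44 (SE 0.18, adjusted p = 0.191).

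After treatment none of 87 members tested at week 19 and none of 88 at week 23 passed (0% of all genes at both weeks). DESeq2 passed 9 and 1 members, and the medians of the members were -0.21 and -0.22 (log2). An unadjusted p under 0.05 was reached by 37 and 31 members, against 1859 of 14715 and 2416 of 14956 genes tested. Set against the mean effect at weeks 19 and 23, the effect at week 15 was lower for 5 members and higher for 1 (11.5% of all genes lower, 16.3% higher), with a median difference of 0.00. A difference above 1.5-fold as well was found for 2 of these members and 20.4% of all genes. The 5 were RPL36A, RPL4, RPLP0, RPL7 and RPL7L1, with differences of -1.49, -0.41, -0.37, -0.34 and -0.31 (log2, SEs 0.51, 0.16, 0.15, 0.13 and 0.12, adjusted p = 0.0197, 0.0403, 0.0476, 0.0421 and 0.0461). With TMM factors taken from the other genes, 2 members passed, and RPL4, RPLP0 and RPL7L1 did not (adjusted p = 0.0530, 0.0588 and 0.0515). With the animal as a block 7 passed, and RPS15 passed there as higher (0.49, adjusted p = 0.0275). The 1 that was higher was RPL39L (1.51, SE 0.47, adjusted p = 0.00975), which had under 1 CPM at these weeks. In the same animals the member share rose from week 15 to week 23 in 6 of 6 wIFN-α animals, by 0.530 ± 0.244 percentage points (SD), and in 7 of 8 placebo animals, by 0.519 ± 0.514.

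The placebo animals themselves changed over the study. Their members were lower at weeks 11 and 15 than at weeks -3 and 0 for 73 of 89 genes and higher for 2, where 19% of all genes were lower and 17.5% higher, and the median log2 fold change was -0.32 against -0.05 over all genes. Without the biopsies with more than 5% skeletal muscle reads 80 members passed, with the animal as a block 80, and with the 9 placebo animals that had biopsies at weeks -3, 0 and 15 it was 75. In weeks 3 and 7 together, a comparison added after the data were seen, 9 members were lower than at weeks -3 and 0 and 2 were higher (7.41% of all genes lower, 7.02% higher), and in weeks 19 and 23, also added, 16 were lower and 3 higher (19.4% of all genes lower, 17.1% higher). The median log2 fold changes were -0.11 in both. From week 0 to week 15 the member share fell in 9 of 9 placebo animals, by 0.632 ± 0.327 percentage points (SD), and in 8 of 8 wIFN-α animals, by 0.498 ± 0.289. The week 0 biopsies of wIFN-α animals already followed an injection. From week -3 to week 15 the share fell in 7 of 9 placebo animals and in 8 of 8 wIFN-α animals. The mean changes were -0.247 ± 0.398 percentage points (SD) in placebo and -0.659 ± 0.346 in wIFN-α animals. The largest placebo rise, 0.477, was that of M1001, whose week -3 share was the lowest of its group (1.06%). Early and late placebo biopsies were also compared by the sequencing lane of their deepest run. The mean placebo share at weeks 11 and 15 was lower than at weeks -3 and 0 in 6 of 7 lanes. It was higher in the remaining 1, whose only early biopsy was the muscle-rich one of F1016 at week -3. The mean log2 level of the members was lower late in 7 of 7 lanes. The share of reads on the 12 hepatocyte genes was also lower late, with a median of 12.6% at week -3, 10.01% at week 0, 7.12% at week 11 and 7.38% at week 15 in placebo animals, and its part in the result was not tested. Age, calendar time and the number of earlier biopsies rose together with the week and cannot be told apart.

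Among the members that fell over time in placebo animals, RPS28 of the small subunit had the lowest fold change. It lay at 64.0, 86.6 and 108 CPM (lowest, median and highest) at week 0 and at 40.7, 56.9 and 70.6 CPM at week 15 in placebo animals, which overlapped, with a log2 fold change of -0.71 over the 4 weeks (SE 0.09, adjusted p = 3.16e-11). RPL28 had -0.65 (SE 0.10, adjusted p = 2.01e-08), RPS26 had -0.64 (SE 0.09, adjusted p = 5.95e-09) and RPLP2 had -0.60 (SE 0.10, adjusted p = 3.30e-07). RPL4 had -0.31 (SE 0.08, adjusted p = 6.54e-04), close to the median, and RPS2 had -0.01 (SE 0.09, adjusted p = 0.922). The 2 members that rose were RPL7L1 by 0.29 (SE 0.06, adjusted p = 3.19e-05) and RPL36A by 1.13 (SE 0.25, adjusted p = 1.16e-04), the latter with few reads. By subunit, 29 of 31 small subunit, 36 of 43 large subunit and 3 of 3 P stalk genes were lower.

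**Figure D4:**
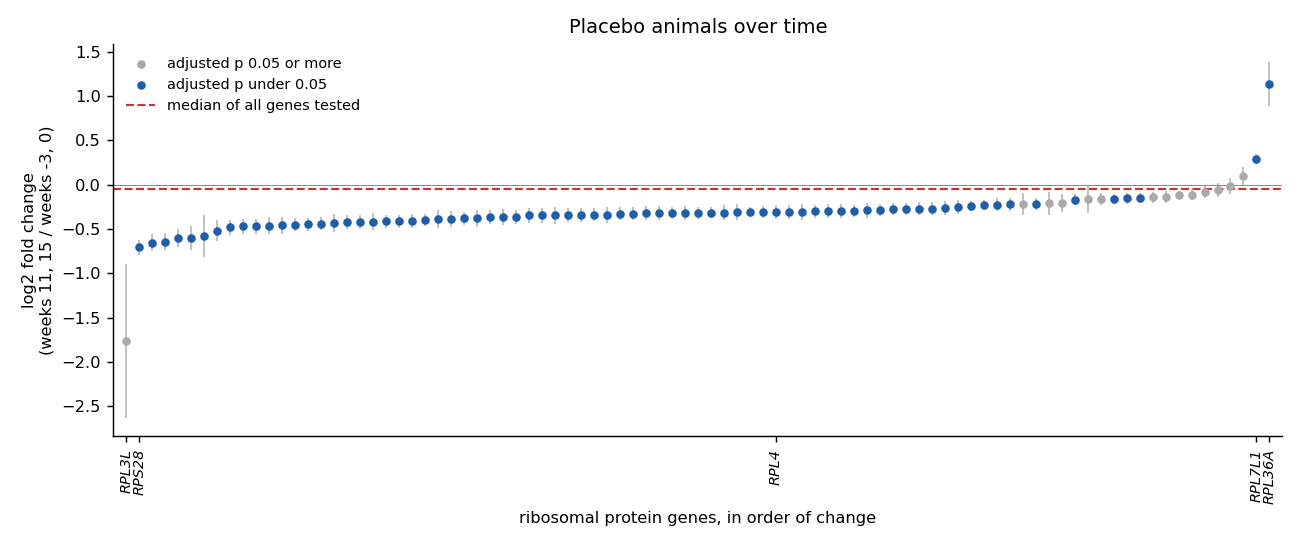
Log2 fold change of each ribosomal protein gene in placebo animals between weeks 11 and 15 and weeks -3 and 0 (y axis, bars are SEs), in order of change (x axis). Blue points passed at an adjusted p under 0.05 and the red dashed line is the median of all genes tested (-0.05). Nearly all members lay below that line, with RPS28 lowest of those that passed and RPL7L1 and RPL36A, which passed, above 0.

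The members varied together from biopsy to biopsy. Over the 149 biopsies the median Pearson r between pairs of the 86 members with a median of at least 1 CPM was 0.76 (3655 pairs, log2 of CPM + 1), and their first principal component held 73.2% of the variance. With the mean of each group and week taken out, r was 0.67 and the component held 66.0%, and without the 5 muscle-rich biopsies these were 0.69 and 68.0%. For 76 mitochondrial ribosomal protein genes the median r was 0.25, and 0.30 with group means taken out, and for the 22 translation factors and other 5 prime TOP genes 0.46 and 0.36. For the 12 hepatocyte genes it was 0.75 and 0.86, and 0.19 and 0.25 without the muscle-rich biopsies. These are descriptions over biopsies that share animals, libraries and scaling. The members least like the others within groups were RPS10-NUDT3 (r = 0.13 with the mean of the rest), RPL7L1 (0.14), RPS27L (0.34) and RPL10 (0.41). Among 13346 other genes those whose level was most like the mean of the members included RPL13AP5, RPL13P5, EEF1D and EIF3K, with r of 0.96, 0.93, 0.90 and 0.85. RPL13AP5 and RPL13P5 are symbols of processed pseudogenes of members, and their reads could be those of the members.

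Other genes of the translation machinery were given as lists chosen with these data known. Of 22 translation factors and other 5 prime TOP genes, 14, 17 and 13 were lower at weeks 7, 11 and 15 (23%, 17.2% and 19.2% of all genes) and none was higher (23.6%, 20.2% and 22.3%), with median log2 fold changes of -0.18, -0.33 and -0.24. EEF1A1, which brings tRNAs to the ribosome, differed by 0.06 on the log2 scale at week 0 (SE 0.11, adjusted p = 0.720) and fell by 0.46 on the log2 scale at week 15 (SE 0.11, adjusted p = 0.00201). EEF1B2 and EIF4B were the lowest of the list at week 15, with -0.56 and -0.47 (SEs 0.15 and 0.07, adjusted p = 0.00778 and 6.15e-05), and HNRNPA1 and EIF4A2 the highest, with 0.01 and 0.10. EEF2, which moves the ribosome along the mRNA, had -0.23 at week 15 (SE 0.10, adjusted p = 0.0808) and fell by 0.65 over time in placebo animals (SE 0.08, adjusted p = 4.92e-11). Of the ribosomal proteins with other symbols, GNB2L1 (RACK1, on the small subunit) fell by 0.36 at week 15 (SE 0.12, adjusted p = 0.0248), while FAU had -0.22 (SE 0.14, adjusted p = 0.241).

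Of 28 ribosome biogenesis genes, 7, 2, 6, 13 and 9 were lower at weeks 0, 3, 7, 11 and 15 (25%, 7.14%, 21.4%, 46.4% and 32.1% of the list, against 16.2%, 7.6%, 23%, 17.2% and 19.2% of all genes). At the same weeks 4, 1, 3, 2 and 2 were higher (18.4%, 11.8%, 23.6%, 20.2% and 22.3% of all genes). At week 15 GNL3 and WDR12, factors of large subunit assembly, had -0.73 and -0.73 (SEs 0.16 and 0.11, adjusted p = 0.00116 and 4.55e-05), while DKC1, the pseudouridine synthase of ribosomal RNA, had 0.92 (SE 0.09, adjusted p = 3.58e-07) and POLR1A, the largest subunit of RNA polymerase I, 0.54 (SE 0.12, adjusted p = 0.00151). WDR12 was also lowest at week 0 with -0.64, followed by POLR1B with -0.46, and DKC1 and BRIX1 were highest with 0.70 and 0.40. NCL, nucleolin, had 0.03 at week 15 (SE 0.07). Of 25 genes of mTORC1 and TOP translation control, 5 were lower and 4 higher at week 15. These were 20% and 16% of the list, against 19.2% and 22.3% of all genes. MYC, a transcription factor for ribosome genes, rose by 1.38 (SE 0.30, adjusted p = 0.00139) and its partner MAX by 0.85 (SE 0.07, adjusted p = 1.18e-08), while EIF4EBP1, a repressor of cap-dependent translation, fell by 0.79 (SE 0.13, adjusted p = 8.78e-05) and RRAGD, a Rag GTPase, by 0.77 (SE 0.17, adjusted p = 0.00192). MYC and MAX were also the highest of this list at week 0, with 0.89 and 0.79, and EIF4EBP1 and AKT1S1 the lowest, with -0.51 and -0.37.

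The 76 mitochondrial ribosomal protein genes, whose ribosome translates the mitochondrial genome, were called lower about as often as all genes at weeks 7 and 15. At weeks 0, 3, 7, 11 and 15, 9, 18, 20, 17 and 15 were lower (11.8%, 23.7%, 26.3%, 22.4% and 19.7% of the list, against 16.2%, 7.6%, 23%, 17.2% and 19.2% of all genes). At the same weeks 12, 3, 12, 5 and 5 were higher (18.4%, 11.8%, 23.6%, 20.2% and 22.3% of all genes), and their medians were -0.01, -0.14, -0.05, -0.11 and -0.10. MRPL32 rose by 1.61 at week 0 (SE 0.08, adjusted p = 7.85e-14) and by 1.34 at week 15 (SE 0.08, adjusted p = 2.06e-10), and MRPL19 by 1.28 at week 15 (SE 0.17, adjusted p = 1.05e-05). MRPL36 and MRPL12 were the lowest at week 15, with -0.71 and -0.67, MRPL43 and MRPL55 the lowest at week 0, with -0.60 and -0.47, and MRPS6 was second highest there with 0.83. At week 15, 9 of 11 T cell marker genes and 5 of 8 B and plasma cell genes tested were higher in wIFN-α animals. So were 11 of 12 proliferation genes and 2 of 12 hepatocyte genes, and no hepatocyte gene was lower. Of all genes 22.3% were higher and 19.2% lower at that week. The shares of all genes at the other weeks are those given above for the mitochondrial list. At weeks 0, 3, 7 and 11 the T cell genes that were higher numbered 1, 1, 3 and 8, and 1 was lower at week 7. Of the proliferation genes 8 were lower at week 0 (median log2 fold change -0.82), 1 was higher at week 3, none passed at week 7 and 11 were higher at week 11. Of the 12 hepatocyte genes 0, 0, 2 and 1 were lower and 1, 0, 3 and 1 higher at weeks 0, 3, 7 and 11. Of 10 myeloid genes 1, 2, 3, 2 and 1 were lower and 1, 0, 1, 1 and 2 higher at weeks 0, 3, 7, 11 and 15. The part of these cells in the members' decrease was not tested.

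**Figure D5:**
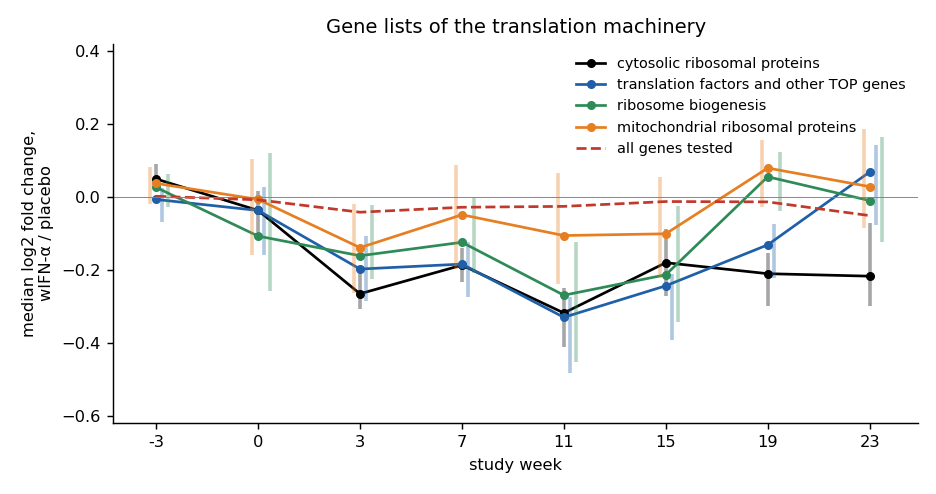
Median log2 fold change between wIFN-α and placebo animals (y axis) of 4 gene lists and of all genes tested (red dashes) by study week (x axis), with the interquartile range of each list as a pale bar. The cytosolic ribosomal proteins (black) and the translation factors (blue) had medians of -0.32 and -0.33 at week 11, and the mitochondrial ribosomal proteins (orange) -0.11.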

How the data were processed

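Polyadenylated RNA of liver biopsies was sequenced as paired ends. Per the labels and the study's methods, the authors aligned reads with Bowtie2 to their woodchuck transcriptome assembly, whose contigs were named from BLAST matches to human, mouse or rat RefSeq transcripts after a pairwise alignment and a comparison of the best hits, and counted them per gene with SAMtools. The deposited expected counts are fractional in 118 of 3368022 nonzero entries. They were rounded to whole numbers after the runs of a biopsy were summed (203 runs, 164 biopsies, 149 used). The deposited RPKM values served only to compute the gene lengths behind them. The versions of Bowtie2 and SAMtools and the use of strand in counting are not given in the sources used here.

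Members and gene lists were chosen with earlier results of these data known. Each week was fitted by edgeR 4.0.16 (R 4.3.3; TMM, filterByExpr, quasi-likelihood test, Benjamini-Hochberg over all genes tested), and the comparisons between weeks in 1 fit of the 16 groups. Standard errors are the log2 fold change divided by the square root of F. The fits were tested on simulated data. DESeq2 1.42.0, limma-voom (limma 3.58.1), RLE, upper quartile and library-total scaling, TMM without the members, no filter, sex as a covariate, M1004 included, the deepest run of each biopsy, 1 fit of all weeks, leaving out the muscle-rich biopsies or single animals, and the animal as a block were tried as alternatives. Deviations from group means correlated within animals (median r = 0.286 over 450 pairs of biopsies of 1 animal, 325 of them above 0.1) and not between animals (median -0.006 over 9201 pairs), and the labels give the animal, so the block is a true pairing. Named members were the 5 that ranked highest and the 5 that ranked lowest by fold change at weeks 0 and 15, up to 5 in each direction that passed the test between doses, and RPLP0, RPLP1, RPLP2, RPSA, RPS6, RPL13A, RPL5, RPL11 and the paralogs whose symbols end in L or L1, without RPS17L. From the other lists, RACK1, FAU, EEF1A1, EEF2, MYC, NCL and the 2 highest and 2 lowest of each list at weeks 0 and 15 were named. Genes named beyond this rule were chosen after their values were seen, and some genes that the rule names are not reported here.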

Additional observations from a re-analysis of the deposited data

Results flagged for a closer look

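Biopsies that stood apart from the rest of their group by the gap to the nearest other biopsy (Dixon's test) were looked for in groups of 5 to 10 animals. For the share of reads on the members this was so in 3 of 10 groups, and for the levels of the 29 named genes, looked at for week 15 only, in 10 of 58, where chance gives about 1 in 20. The member share of wIFN-α animal M1007 at week 7 was 1.77% (next animal 1.47%), that of placebo animal F1021 at week 15 was 2.34% (next 1.74%) and that of placebo animal M1008 at week 23 was 2.95% (next 2.34%).

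Of these 10 gene levels 4 belonged to placebo animal F1021, which was the highest of its group for RPL22L1 (29.2 CPM, next 9.39), RPS15 (151.9 CPM, next 100.5), RPS2 (872 CPM, next 477) and RPS6 (543 CPM, next 372). Placebo animal M1008 was the lowest of its group for RPL7L1 (42.2 CPM, next 50.2) and RPS27 (161.0 CPM, next 212). Among the wIFN-α animals, F1014 was lowest for RPL10 (71.3 CPM, next 122.9) and highest for RPL13A (45.6 CPM, next 36.9), F1013 was highest for RPL7L1 (58.5 CPM, next 47.9) and F1022 was highest for RPSA (329.9 CPM, next 265.5).

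The difference between the wIFN-α effect at week 15 and its mean at weeks 19 and 23 passed for RPL36A (-1.49), RPL39L (1.51), RPL4 (-0.41), RPL7 (-0.34), RPL7L1 (-0.31) and RPLP0 (-0.37, all log2).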

How the results depend on the processing

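The number of members passing at each week moved with the setting, while no named or summary value that passed its test changed sign. With a fold change above 1.5 as well, 0, 0, 1, 3 and 2 members passed at weeks 0, 3, 7, 11 and 15, 2 in the follow-up comparison and 6 over time in placebo. Under upper quartile scaling 7, 24, 67, 62 and 47 passed at weeks 0 to 15, and the member medians were -0.44 at week 11 and -0.25 at week 19. Library totals gave 14 (median -0.22), 5 and 66 at weeks 0, 3 and 7. These scalings moved the median of all genes too, by -0.19 at week 0 for totals and by between -0.12 and -0.14 at weeks 0, 7, 11 and 15 for upper quartiles. DESeq2 gave 5, 19, 9 and 1 at weeks 0, 3, 19 and 23, limma-voom 19 at week 3, M1004 included 3 and 21 at weeks 0 and 3, no filter 2 and sex as a covariate 2 at week 0. Without the muscle-rich biopsies 0 and 4 passed at weeks 0 and 3. In 1 fit of all weeks 5, 28, 19, 54 and 5 passed at weeks 0, 3, 7, 11 and 23. TMM without the members gave 2 in the follow-up comparison. The causes were not tested.

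With the animal as a block and effects taken relative to week -3, 3, 19 and 15 members passed at weeks 0, 3 and 7. In the test between doses 1 member (RPS15) passed with the animal as a block. Without the muscle-rich biopsies this block gave 2, 12 and 14 at weeks 0, 7 and 15. The block moved no other count by more than 1.5 times.

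Leaving out 1 animal at a time gave 0 to 4 members at week 0, 24 to 53 at week 7, 27 to 66 at week 11 and 17 to 31 at week 15. The median lay between -0.39 and -0.23 at week 11 and between -0.26 and -0.15 at week 19. At week 3 only F1013 was left out, which gave 5. Of the summary values under other settings, 433 stayed within 1.5 times the count or the spread of the groups and 68 moved, and 58 named values gained and 40 lost their call. RPL36A, RPL39L and RPL3L had few reads in most biopsies, and depth limits their values.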

Other observations

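Biopsies outside the comparisons had the following member shares of reads. Animal M1004, left out of all fits, had 1.97% at week -3 and 1.60%, 1.42%, 1.29%, 1.24%, 1.21% and 1.45% at weeks 0, 3, 7, 11, 15 and 19. Placebo animals F1017 and M1010 had 1.68% and 1.66% in biopsies of week 17, wIFN-α animal M1006 had 2.54% at week 2 and wIFN-α animal M1002 had 1.60% at week 25. Livers taken at death had 2.07% in F1020, 2.34% in F1023 and 1.44% in M1007 (wIFN-α) and 1.92% in F1024 (placebo).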
